A study of Mus musculus with 4 samples.

Results

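Genes of voltage-gated sodium channels, voltage-gated calcium channels and HCN channels were followed in the prelimbic cortex, which belongs to the medial prefrontal cortex. The animals were males at postnatal day 90. Members were the probe sets annotated to 1 gene symbol whose symbol marks a sodium channel alpha or beta subunit (Scn), a calcium channel alpha1, alpha2delta or beta subunit (Cacna, Cacnb) or an HCN subunit (Hcn). Where a gene had several probe sets, the one brightest on average across the 4 arrays stood for it. By this rule 72 probe sets and 29 genes were analysed, of 18193 genes in all: 8 sodium alpha, 3 sodium beta, 9 calcium alpha1, 4 alpha2delta, 3 calcium beta and 2 HCN genes. Of 36 symbols that fit the rule, 7 were not analysed here. The fluoxetine group held 2 arrays from males whose exposure to fluoxetine, a drug that blocks serotonin reuptake, was prenatal. The untreated group held 2 arrays from control males. No genotype or strain is named in the labels, and both groups share sex, age and the tissue punch. The submitters call the arrays biological duplicates, without saying whether an array is 1 mouse or a pool, or whether litters differ, so p-values measure only the spread between these arrays. All values are log2 intensities of 3' expression arrays, a scale on which the levels of different probe sets cannot be set against each other.

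Sodium channels carry the rising phase of the action potential. Their alpha subunits form the pore and the voltage sensors, and their beta subunits are single-pass membrane proteins that tune gating and act as adhesion molecules. Calcium channels couple depolarization to transmitter release, dendritic calcium signals and transcription. Their pore is the alpha1 subunit, while the extracellular alpha2delta and the cytosolic beta subunits bring it to the membrane. HCN channels open on hyperpolarization, bind cyclic nucleotides and carry the current that sets the resting potential and dendritic integration of cortical pyramidal cells.

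The promoters of 3 genes described below are shown, from RefSeq on GRCm38.p6. Scn1a is shown as the gene called, Cacnb4 for its differing probe sets and Scn4b for its array set apart. Over all mouse promoters the commonest window, in 60.4%, ran from 250 bases before to 50 after an annotated start. That placement is not given for each window shown. Capitals mark 5 motifs found on either strand. The GC box is spelled GGGCGG and can overlap another GC box. A CCAAT box is the letters of its name, and the TATA box was searched as TATAAA. The cyclic AMP response element, called CRE, is TGACGTCA in full, and its half-site, which the full form holds, is TGACG. Cacnb4 has 3 starts in the table, of which the downstream one and 1 of the upstream pair, whose windows overlap, are given.
Scn1a, chr2:66440788-66441087, minus strand: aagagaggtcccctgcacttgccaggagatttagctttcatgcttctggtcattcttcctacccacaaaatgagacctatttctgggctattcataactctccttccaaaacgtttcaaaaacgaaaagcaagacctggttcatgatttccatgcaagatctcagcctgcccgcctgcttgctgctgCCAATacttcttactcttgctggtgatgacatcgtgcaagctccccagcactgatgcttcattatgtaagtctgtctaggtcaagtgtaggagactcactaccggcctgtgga
Cacnb4, downstream start, chr2:52558562-52558861, minus strand: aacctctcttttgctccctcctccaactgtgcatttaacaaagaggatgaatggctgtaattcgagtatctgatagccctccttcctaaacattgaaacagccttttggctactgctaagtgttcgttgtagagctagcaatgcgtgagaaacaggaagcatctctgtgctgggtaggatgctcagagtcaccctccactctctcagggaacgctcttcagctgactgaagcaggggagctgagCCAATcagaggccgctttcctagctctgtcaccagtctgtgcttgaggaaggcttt
Cacnb4, upstream start, chr2:52676094-52676393, minus strand: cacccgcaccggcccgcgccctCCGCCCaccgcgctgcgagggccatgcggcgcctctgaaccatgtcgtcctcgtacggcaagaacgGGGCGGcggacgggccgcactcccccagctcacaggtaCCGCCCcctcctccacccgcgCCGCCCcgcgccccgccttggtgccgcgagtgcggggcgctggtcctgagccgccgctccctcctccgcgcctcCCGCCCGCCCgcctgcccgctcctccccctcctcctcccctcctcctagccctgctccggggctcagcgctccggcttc
Scn4b, chr9:45138374-45138673, plus strand: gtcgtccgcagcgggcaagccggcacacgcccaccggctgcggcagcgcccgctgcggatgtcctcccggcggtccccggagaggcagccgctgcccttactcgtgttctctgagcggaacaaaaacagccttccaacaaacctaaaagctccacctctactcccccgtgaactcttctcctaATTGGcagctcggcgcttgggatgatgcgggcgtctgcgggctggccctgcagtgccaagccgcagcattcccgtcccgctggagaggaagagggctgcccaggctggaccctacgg
The Cacnb4 starts differ in base composition, with 49.7% G and C and 5 CpG sites at the downstream window against 78.3% and 40 at the upstream one, which alone of the 2 holds GC boxes. The Scn1a window has 47.3% G and C and 5 CpG sites, and that of Scn4b 66.3% and 26. The table held 31 promoters for 22 of the 29 genes, with a median G and C content of 57.3%, against 52.7% over 32851 mouse promoters of the same length. A GC box was present in 41.9% of the channel promoters and 35.7% of all. For the other motifs the shares were 22.6% and 37.4% (CCAAT box), 16.1% and 20.8% (CRE half-site), 6.45% and 13.6% (TATA box) and 0% and 1.79% (full CRE). These matches are letters in a window and say nothing of a bound factor.

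The arrays were alike, with medians of 6.44 to 6.50 and pairwise correlations of 0.996 to 0.997 over all probe sets. Markers of cortical projection neurons (7 of 8 measured, all above the median level of 7.87 over all genes) were in place, the dimmest being Slc17a7 at 9.48. Untreated replicate 2 stood apart in striatal medium spiny neuron markers: all 10 measured were highest on that array, and their summed level was 14.07 there, 13.13 on untreated replicate 1 and 13.05 to 13.32 with fluoxetine. None was at or near 0, the dimmest, Syndig1l, averaging 6.30. On the same array 10 of 11 oligodendrocyte markers were highest (summed level 15.67, against 15.50 to 15.52 on the others). That array was the highest for 36.1% of all genes and 43.6% of those above the median level. Markers of astrocytes (14.85 to 14.95), microglia (13.02 to 13.15), endothelial and mural cells (12.90 to 13.07) and interneurons (14.49 to 14.58) showed no array as far from the others as the striatal list did. Between the groups, at an unadjusted p below 0.05 in the limma fit, 4 of 11 oligodendrocyte markers and 1 of 10 striatal markers were lower with fluoxetine (3.51% of all genes). At the same p 3 of 8 astrocyte markers and 3 of 7 projection neuron markers (Neurod6, Cux2 and Fezf2) were higher (3.45% of all genes). No interneuron, microglia or endothelial and mural marker passed that p, and no marker passed adjustment. The astrocyte sums did not overlap, at 14.93 and 14.95 with fluoxetine and 14.85 and 14.85 without. The part of these lists in the channel values was not tested. In such tissue RNA, fewer cells of a type and less RNA per cell cannot be told apart.

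Channel transcripts differed little between the groups. Of the 29 genes, 1 was higher and 0 were lower with fluoxetine at an unadjusted p below 0.05 in the limma fit, where 3.45% of all genes were called higher, 3.51% lower and 6.96% either way. The 1 is Scn1a. None passed after Benjamini-Hochberg adjustment over all genes by limma, as 0% of all genes did, and the lowest adjusted p of a channel gene was 0.708. With 2 arrays against 2, an exact permutation test cannot give a p below 0.333. Differences, fluoxetine minus untreated, ran from −0.22 (Scn4b) to 0.36 (Scn9a) on the log2 scale, with 14 above 0, 15 below and a median of −0.01 against −0.02 over all genes. The median absolute difference was 0.08 for the channel genes and 0.08 for all genes. For the 21 channel genes above the median level it was 0.08, against 0.05 for all genes above that level. In 26 of the 29 genes the 95% interval of the difference lay within 1.5-fold both ways; the exceptions were Scn4b, Scn9a and Scn10a. These intervals rest largely on variances borrowed from other genes. After another quantile normalization the calls were 0 higher and 4 lower (Cacna1c, Cacna1e, Cacna2d2 and Scn8a), and the median difference over all genes was −0.03. No share of all genes is given here for that setting or with an array left out. These counts are therefore not read as a result about the channels. With untreated replicate 2 left out the counts were 2 and 0, and with untreated replicate 1 left out 0 and 4. Leaving out fluoxetine replicate 2 gave 2 and 1, and leaving out fluoxetine replicate 1 gave 0 and 0.

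**Figure D1:**
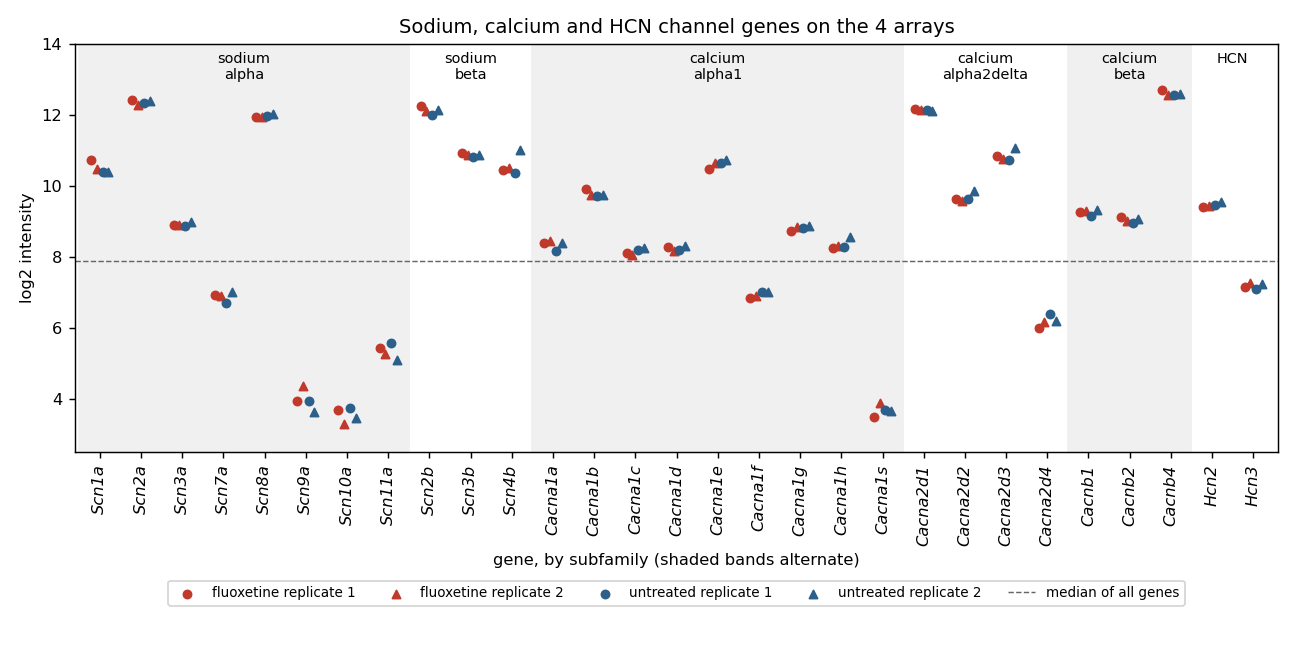
Log2 intensity (vertical axis) of the 29 channel genes on each of the 4 arrays, by subfamily; red marks fluoxetine, blue untreated, circles replicate 1 and triangles replicate 2, and the dashed line is the median of all genes at 7.87. The 4 arrays nearly coincide for most genes, while untreated replicate 2 is set apart for Scn4b at 11.01 and Cacna2d3 at 11.07.

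Arrays of the groups did not overlap for 10 channel genes. The fluoxetine arrays were the higher pair for 4 (13.8%; 15.5% of all genes), namely Scn1a, Cacna1a, Cacna1b and Cacna2d1. They were the lower pair for 6 (20.7%; 22.3% of all genes), namely Scn8a, Cacna1c, Cacna1e, Cacna1f, Cacna2d4 and Hcn2. These shares are near those of all genes. For the other settings that follow, no share of all genes is given here. Where 1 array is left in a group, overlap is rarer, so those counts cannot be set against the shares above. After another quantile normalization the counts were 2 and 10, 5 and 3 after subtracting array medians, and 8 and 7 when a gene was read from its most variable probe set. Untreated replicate 2 was the highest array for 14 of the 29 genes (48.3%; 36.1% of all genes), and without it the counts were 13 and 8. Without untreated replicate 1 they were 6 and 15, without fluoxetine replicate 1 they were 7 and 11, and without fluoxetine replicate 2 they were 9 and 9.

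**Figure D2:**
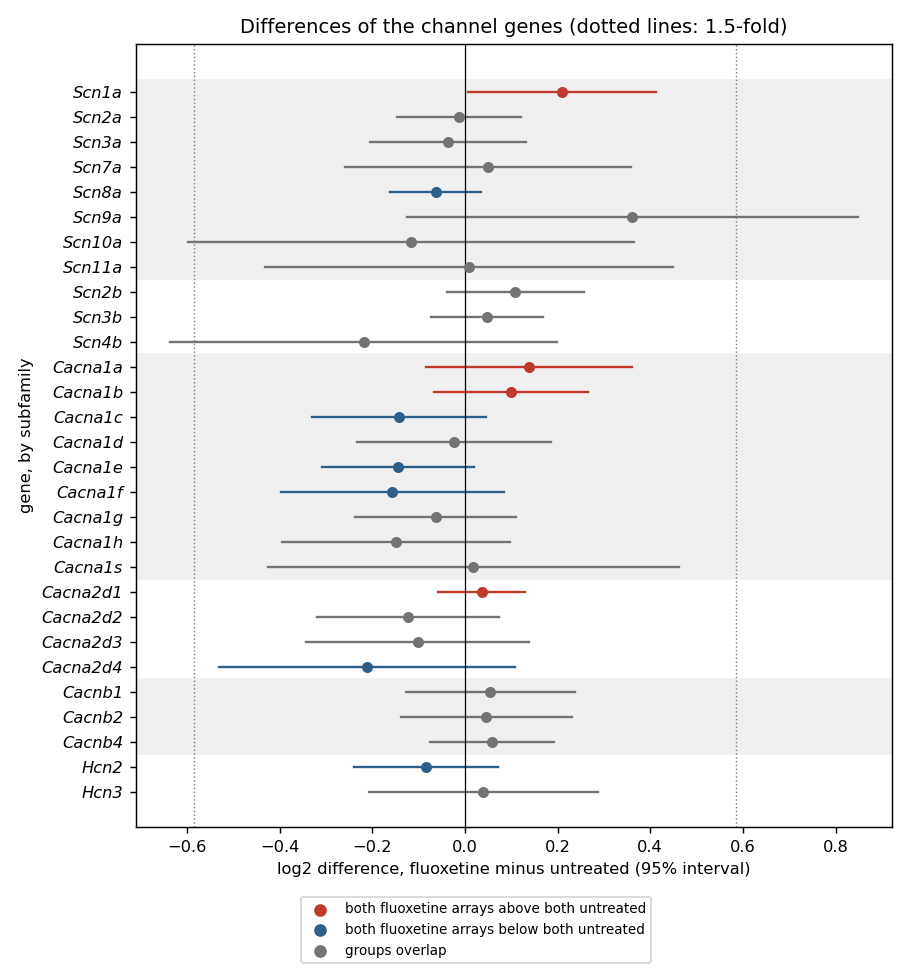
Log2 difference, fluoxetine minus untreated, with its 95% interval from the limma fit (horizontal axis) for each of the 29 genes; in red genes both fluoxetine values exceed the untreated ones, in blue genes both lie below them, grey genes overlap, and dotted lines mark 1.5-fold. Of the 29 intervals, that of Scn1a alone lies wholly on one side of 0, and those of Scn4b, Scn9a and Scn10a cross a dotted line.

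Among the sodium channel alpha subunits, Scn1a was higher with fluoxetine. It encodes an alpha subunit concentrated at the axon initial segment of parvalbumin interneurons, whose loss of function causes Dravet syndrome. It read 10.73 and 10.46 with fluoxetine and 10.39 and 10.38 without. The groups did not overlap, and fluoxetine replicate 1 lay far above the other arrays while replicate 2 lay close to the untreated pair. The difference was 0.21 (SE 0.09, 1.16-fold, unadjusted p = 0.0449 and adjusted p = 0.708 by limma). All 3 of its probe sets were higher, by 0.21, 0.31 and 0.33. For the one at 0.31 the groups overlapped (unadjusted p = 0.131 by limma). The call ended after another quantile normalization (0.17, unadjusted p = 0.0596 by limma) and without the intensity trend (unadjusted p = 0.126 by limma). It also ended with the most variable probe set (0.31, unadjusted p = 0.0986 by limma). It held after subtracting array medians (0.25, unadjusted p = 0.0207 by limma) and with the mean of all probe sets (0.28, unadjusted p = 0.0362 by limma). Among genes above the median level it held as well (unadjusted p = 0.0455 by limma). The difference was 0.08 without fluoxetine replicate 1 and 0.34 without fluoxetine replicate 2. Without untreated replicate 1 it was 0.22, and without untreated replicate 2 it was 0.20. Pvalb, the calcium-binding protein of those interneurons, read 11.17 on fluoxetine replicate 1 and 10.25 to 10.36 on the other arrays. Of the 10 interneuron markers, 4 were highest on that array, as were 24% of all genes and 33.1% of those above the median level. The summed level of these markers was 14.54 to 14.58 with fluoxetine and 14.49 to 14.58 without. Kcnc1, a potassium channel of fast-spiking cells, read 11.30 there and 11.22 to 11.36 elsewhere. Slc32a1, Sst and Reln were lowest on that array, at 9.92, 12.23 and 10.09. Of the 7 cortical projection neuron markers, 6 were highest on fluoxetine replicate 1 (24% of all genes, 33.1% of those above the median level). Their summed levels were 13.18 to 13.26 with fluoxetine and 13.07 to 13.15 without. The part of either list in the Scn1a difference was not tested.

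The other alpha subunits of central neurons lay closer together. Scn2a, the alpha subunit of pyramidal cell axons early in development and of their dendrites later, read 12.42 and 12.27 with fluoxetine and 12.33 and 12.39 without, a difference of −0.01 (SE 0.06) that was 0.02 after subtracting array medians. Its 95% interval ran from −0.15 to 0.12. Scn8a, which sets the firing threshold at the distal initial segment and nodes, read 11.95 and 11.93 against 11.98 and 12.03, a difference of −0.06 (SE 0.04). The groups did not overlap, and 4 of its 5 probe sets were lower. Scn3a, mainly a channel of the developing brain, differed by −0.04 (SE 0.07), or 0.02 without untreated replicate 2.

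Alpha subunits known mainly from other tissues were below the median level, and no detection call was used here to tell their signal from background. Scn9a, a channel of nociceptors, had the largest difference of the subfamily. It read 3.92 and 4.34 with fluoxetine and 3.93 and 3.61 without, so that fluoxetine replicate 1 lay among the untreated arrays. The difference of 0.36 (SE 0.21, unadjusted p = 0.123 by limma) had a 95% interval of −0.13 to 0.85. Of its 5 probe sets 2 were higher and 3 lower, from −0.19 to 0.39. Scn10a and Scn11a, also of sensory neurons, differed by −0.12 (SE 0.20) and 0.01 (SE 0.19), and Scn7a, a sodium-sensing relative, by 0.05 (SE 0.13). The sodium alpha genes had a median difference of −0.0023 (0.03 after subtracting array medians, 0.01 after another quantile normalization, −0.05 without fluoxetine replicate 1 and 0.07 without fluoxetine replicate 2).

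Of these genes 5 stand in 1 stretch of chromosome 2, in the order Scn3a, Scn2a, Scn1a, Scn9a and Scn7a, with Csrnp3, Galnt3 and Ttc21b between Scn2a and Scn1a. Along it the differences were −0.04, −0.01, 0.21, 0.36 and 0.05. The genes of the stretch thus did not share a direction.

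Among the sodium channel beta subunits, 1 array was set apart for Scn4b. Scn4b, which favours resurgent sodium current and is abundant in striatal neurons, read 10.44 and 10.49 with fluoxetine and 10.36 and 11.01 without. Untreated replicate 2 alone was high, and untreated replicate 1 was the lowest of the 4. The difference of −0.22 (SE 0.18, unadjusted p = 0.256 by limma) was 0.10 without untreated replicate 2 and −0.54 without untreated replicate 1. Each of these rests on 1 untreated array. Ppp1r1b, a phosphatase inhibitor of striatal neurons, read 10.68 on untreated replicate 2 and 9.57 to 9.92 elsewhere, and Rgs9 read 10.18 there and 8.94 to 9.28 elsewhere. All 10 striatal markers were highest on untreated replicate 2 (36.1% of all genes). Their summed levels were 13.05 to 13.32 with fluoxetine and 13.13 to 14.07 without. The median difference of these markers was −0.44, or 0.03 without the array. Their part in the Scn4b value was not tested. Scn2b, a disulfide-linked beta subunit, averaged 12.18 ± 0.09 (SD, n = 2) on the fluoxetine arrays; the untreated mean was 12.07 ± 0.10 (SD, n = 2), a difference of 0.11 (SE 0.06) with overlapping groups. Without untreated replicate 2 it was 0.18. Scn3b, which binds alpha subunits without a covalent bond, differed by 0.05 (SE 0.05).

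**Figure D3:**
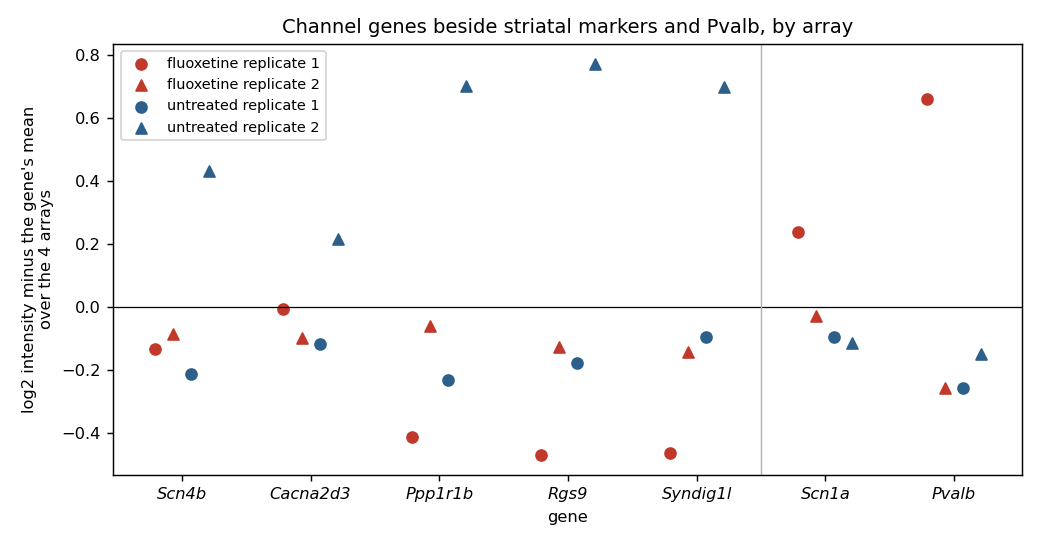
Log2 intensity minus the gene's mean over the 4 arrays (vertical axis) for Scn4b and Cacna2d3 beside the striatal markers Ppp1r1b, Rgs9 and Syndig1l, and for Scn1a beside Pvalb; red marks fluoxetine, blue untreated, circles replicate 1 and triangles replicate 2. Untreated replicate 2 is the highest array for the first 5 genes (0.43 above the mean for Scn4b), and fluoxetine replicate 1 for Scn1a (0.24 above) and Pvalb (0.66 above). Pvalb is 1 of 10 interneuron markers, of which 4 were highest on fluoxetine replicate 1. Slc32a1, Sst and Reln, not drawn, were lowest there.

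Calcium channel alpha1 subunits had a median difference of −0.06, with 3 of 9 genes above 0 and 6 below, and none passed an unadjusted p of 0.05 in the limma fit. Of the brain members, Cacna1a and Cacna1b had differences above 0. Cacna1a, the P/Q-type pore, read 8.39 and 8.43 with fluoxetine and 8.16 and 8.38 without, a difference of 0.14 (SE 0.09). It was 0.03 without untreated replicate 1 and 0.25 without untreated replicate 2. The groups were separated by less than the gap between the untreated arrays, and the 4 probe sets of the gene ran from −0.04 to 0.14. Cacna1b, the N-type pore, read 9.92 and 9.75 against 9.72 and 9.74, a difference of 0.10 (SE 0.07) that was 0.02 without fluoxetine replicate 1. The nearest arrays of the groups were almost equal, and the 4 probe sets of Cacna1b ran from −0.05 to 0.32.

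The L-type and R-type pores of cortical neurons did not pass either. Cacna1c, the main L-type channel of cortical neurons and a link from activity to transcription, read 8.10 and 8.04 with fluoxetine and 8.19 and 8.24 without. The groups did not overlap, and the difference of −0.14 (SE 0.08, unadjusted p = 0.118 by limma) was −0.14 in its other probe set as well. Cacna1e, the R-type pore of dendrites and spines, read 10.46 and 10.64 against 10.66 and 10.73, a difference of −0.14 (SE 0.07, unadjusted p = 0.0761 by limma). Fluoxetine replicate 1 was the low array, without which the difference was −0.06, and the other probe set of the gene differed by 0.03. Without fluoxetine replicate 2 the brightest probe set of Cacna1e differed by −0.23. Cacna1d, the L-type pore that opens at lower voltage, differed by −0.02 (SE 0.09), or 0.01 after subtracting array medians.

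T-type pores open near rest and support burst firing. Cacna1g differed by −0.06 (SE 0.07). Cacna1h read 8.26 and 8.29 with fluoxetine and 8.29 and 8.57 without, and its difference of −0.15 (SE 0.11) was −0.01 without untreated replicate 2, the high array. Its other probe set, well below the median level, differed by −0.28 (SE 0.17). Without untreated replicate 1 the brightest probe set of Cacna1h differed by −0.29. The largest difference of the subfamily belonged to Cacna1f, the retinal L-type pore, which lay below the median level. It read 6.82 and 6.89 against 7.01 and 7.01, without overlap, and differed by −0.16 (SE 0.10, unadjusted p = 0.167 by limma). Cacna1s, the skeletal muscle pore, read between 3.48 and 3.88 on all arrays.

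The alpha2delta subunits, of which the first and second are the targets of gabapentin, had a median difference of −0.11 that was 0.0036 without untreated replicate 2 and −0.17 without untreated replicate 1. Cacna2d1 read 12.17 and 12.15 with fluoxetine and 12.14 and 12.11 without, with the groups apart by little and a difference of 0.04 (SE 0.04; 95% interval −0.06 to 0.13). Cacna2d2, found in inhibitory neurons, read 9.64 and 9.57 against 9.62 and 9.84, a difference of −0.12 (SE 0.08). Without untreated replicate 2 it was −0.01, and without untreated replicate 1 it was −0.24. Cacna2d3 read 10.84 and 10.75 against 10.73 and 11.07. Its difference of −0.10 (SE 0.10) was 0.06 without untreated replicate 2 and −0.27 without untreated replicate 1. The striatal markers, at a summed level of 14.07 on untreated replicate 2, were also highest there, and their part was not tested. Cacna2d4, best known from photoreceptors and below the median level, had the largest difference of the subfamily. It read 5.98 and 6.17 against 6.39 and 6.19, the middle arrays nearly touching, and differed by −0.21 (SE 0.14, unadjusted p = 0.162 by limma).

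Of the cytosolic beta subunits 3 were analysed, without Cacnb3. They read slightly higher, by 0.05 (SE 0.08) for Cacnb1, 0.05 (SE 0.08) for Cacnb2 and 0.06 (SE 0.06) for Cacnb4. The groups overlapped for each. Cacnb4, the main beta partner of the P/Q-type pore and the gene of the lethargic mouse, read 12.71 and 12.55 with fluoxetine and 12.55 and 12.60 without. Only fluoxetine replicate 1 was high, and without it the difference was −0.02. Cacnb1 was at −0.04 without untreated replicate 1. Cacnb2 was at −0.02 and −0.01 without fluoxetine replicate 1 and without untreated replicate 1.

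The measured HCN genes lay close together between groups. Hcn2, which follows cyclic AMP closely and is broadly present in cortex and thalamus, read 9.40 and 9.43 with fluoxetine and 9.45 and 9.56 without. The groups did not overlap, with the nearest arrays almost equal, and the difference was −0.08 (SE 0.07, 95% interval −0.24 to 0.07; unadjusted p = 0.240 by limma). Hcn3 read 7.16 and 7.25 against 7.09 and 7.23, a difference of 0.04 (SE 0.11) below the median level.

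For 4 calcium channel genes (Cacnb4, Cacna2d1, Cacna1b and Cacnb1) a secondary probe set passed an unadjusted p of 0.05 upward by limma, while the brightest one did not. Over the 72 channel probe sets, 6 (8.33%) passed an unadjusted p of 0.05 upward and 0 downward in a limma fit of all 34945 single-symbol probe sets. In that fit 6.4% of all probe sets passed upward, 3.04% downward and 9.45% either way. The upward share of the channel probe sets is thus near that of all probe sets. Of the 6, 5 were not the brightest of their gene, and none passed adjustment, which 0.00286% of all probe sets did; the lowest adjusted p was 0.366 by limma. They are named because of these values, outside the rule for named genes. A secondary probe set of Cacnb4 (1452089_at) read 10.50 and 9.88 with fluoxetine and 9.59 and 9.10 without. The arrays lay further apart inside each group than the nearest arrays of the groups did, and the difference was 0.84 (SE 0.22, 1.80-fold, unadjusted p = 0.00559 by limma). It was 0.54 without fluoxetine replicate 1 and 0.60 without untreated replicate 2, and the gene's other 2 probe sets differed by 0.06 and 0.0044. A secondary probe set of Cacna2d1 (1449999_a_at) read 9.74 and 9.43 against 9.19 and 9.12. Its difference of 0.43 (SE 0.10, 1.35-fold, unadjusted p = 0.00402 by limma) was 0.28 without fluoxetine replicate 1, and the 5 probe sets of the gene ran from −0.30 to 0.43. Another, of Cacna1b (1439612_at), read 9.52 and 9.38 against 9.21 and 9.04, a difference of 0.32 (SE 0.09, unadjusted p = 0.00668 by limma), while the gene's 4 probe sets ran from −0.05 to 0.32. The remaining calls were a Cacnb1 probe set at 0.21 (SE 0.09) and 2 of Scn1a.

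Without fluoxetine replicate 1 the 6 higher calls became 2. After another quantile normalization 6 probe sets were higher and 4 lower, with no share of all probe sets given here for that setting. These 6 were not the same set. The brightest Scn1a probe set dropped out (unadjusted p = 0.0655 by limma). A Scn9a probe set far below the median level came in (unadjusted p = 0.0494 by limma). For all of the poly-A control probe sets, 24 of 24, the mean of the fluoxetine arrays was the higher, by a median of 0.24. These probe sets share a few control transcripts (Dap, Lys, Phe and Thr), so they are not independent readings. The 3' minus 5' signal of control transcripts differed by −0.09 for Actb, −0.04 for Gapdh, 0.15 for Tfrc and 0.14 for Pcx. The part of RNA quality or labelling in these probe sets was not tested. Of the 20 genes with several probe sets, all differences had 1 sign in 11 (5 higher, 6 lower) and both signs in 9.

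**Figure D4:**
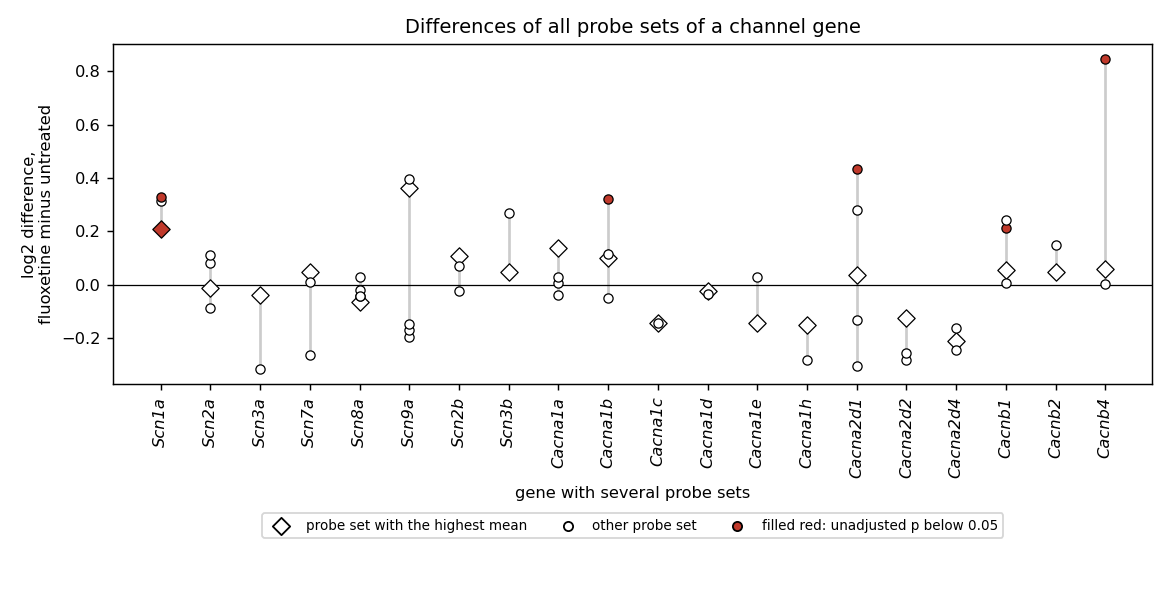
Log2 difference, fluoxetine minus untreated (vertical axis), of every probe set of the 20 channel genes with several; diamonds are the brightest probe set of a gene, circles the others, and red filling marks an unadjusted p below 0.05 by limma. The highest circle is the Cacnb4 probe set at 0.84, far above the diamond of the same gene at 0.06.

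Genes of proteins that bind or regulate these channels were taken from lists, of which 44 of 52 entries were measured. At an unadjusted p below 0.05 in the limma fit 4 were higher (9.09%; 3.45% of all genes), 1 was lower (2.27%; 3.51% of all genes) and 39 did not pass. The median difference was −0.0051, against −0.02 over all genes. No partner passed adjustment, and the lowest adjusted p among the 5 was 0.696. Leaving out fluoxetine replicate 1 gave 1 higher and 2 lower, and leaving out fluoxetine replicate 2 gave 3 and 0. Leaving out untreated replicate 1 gave 4 and 3, and leaving out untreated replicate 2 gave 2 and 0. The counts were 2 and 2 after another quantile normalization and 4 and 0 once array medians were subtracted. For these settings no share of all genes is given here.

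All 4 higher genes were in the calcium channel list (20 measured, median −0.02). Of them 3 belong to the Cacng family, named as calcium channel gamma subunits but best known as AMPA receptor auxiliary proteins. Cacng2, which encodes stargazin, read 10.18 and 10.18 with fluoxetine and 10.07 and 10.02 without, a difference of 0.13 (SE 0.05). Cacng3 read 10.05 and 10.20 against 9.93 and 9.92, a difference of 0.20 (SE 0.07), and was read by 1 probe set only. Cacng4 read 8.47 and 8.44 against 8.31 and 8.15, a difference of 0.23 (SE 0.09), but −0.18 in its other probe set. Gem, a small GTPase that holds calcium channels back from the membrane and is induced by activity, read 5.74 and 5.68 against 5.30 and 5.15, a difference of 0.48 (SE 0.14). For each of these 4 the fluoxetine arrays lay above the untreated ones without overlap, which picking by p on the same arrays favours. Over all 44 partners this held for 10 (15.5% of all genes). The fluoxetine arrays were the lower pair for 7 (22.3% of all genes). Gem lay below the median level.

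Ank3, the ankyrin that anchors sodium channels at the axon initial segment, was the lower partner. It read 12.45 and 12.41 with fluoxetine and 12.53 and 12.61 without, a difference of −0.14 (SE 0.04), and its 6 probe sets ran from −0.14 to 0.17. The sodium channel list (13 measured) had a median of 0.01 with 0 higher and 1 lower. The HCN list (7 measured) and the sodium leak channel list (4 measured), with medians of 0.0035 and −0.03, had no gene past an unadjusted p of 0.05 in the limma fit.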

How the data were processed

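RNA of 4 tissue samples was measured on Affymetrix 3' arrays, per the labels' protocols. The authors deposited a log2 intensity for each probe set, from RMA with affy, per the submitters' processing notes; no version or background step is stated there. Values of −0.08 to 15.14 gave the log base. Replicates were numbered in accession order, so no number pairs arrays.

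Of 45101 probe sets, 34945 had 1 symbol and were used, 64 were controls, 932 had several symbols and 9160 were unnamed here. All 18193 genes were fitted with limma 3.58.1 in R 4.3.3 (lmFit, eBayes with an intensity trend, 2 residual and 5.15 prior degrees of freedom), two-sided, with Benjamini-Hochberg adjustment and a threshold of 0.05. No low values were filtered. The code was tested on simulated data. Summed levels of marker lists are log2 of summed linear intensities. Full values were given for members at an unadjusted p below 0.05 and the largest difference of each subfamily, and levels for the main brain members. Partner genes past that p were named. The members and lists were chosen with earlier results of these data known. Array number limits the precision.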

Additional observations from a re-analysis of the deposited data

How the results depend on the processing

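No channel gene had an adjusted p below 0.05 in the limma fit or any alternative, while smaller counts moved. The counts below stand without the share of all genes under the same setting. No paired analysis was possible because the labels give no shared replicate numbers. Leaving out an array leaves 1 array in a group, which is assumed to vary like the others. It also makes overlap of the groups rarer.

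Channel genes higher at an unadjusted p below 0.05 (1 as reported) numbered 0 after another quantile normalization, 2 with the mean of all probe sets, 3 with the most variable probe set, 0 without the intensity trend and 0 to 2 with an array left out. Lower ones (0) numbered 4 after another quantile normalization and 0 to 4 with an array left out. Genes without overlap numbered 2 higher and 10 lower after another quantile normalization, 3 lower after subtracting array medians, 8 higher with the most variable probe set, and 4 of each above the median level. With an array left out they numbered 6 to 13 higher and 8 to 15 lower. Partner genes higher (4) numbered 2 after another quantile normalization, 7 with the most variable probe set, 2 without the trend, 2 above the median level and 1 to 4 with an array left out. Lower ones (1) numbered 2 after another quantile normalization, 0 after subtracting array medians, 0 with the mean or the most variable probe set and 0 to 3 with an array left out. Channel probe sets with an array left out numbered 2 to 8 higher and 0 to 4 lower, and 4 lower after another quantile normalization.

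Subfamily medians with an array left out ran from −0.053 to 0.072 (sodium alpha), −0.12 to −0.0096 (calcium alpha1) and −0.17 to 0.0036 (alpha2delta). The calcium beta median was 0.24 with the most variable probe set. Signs turned after subtracting array medians for Cacna1d (0.012) and Scn2a (0.024), with the mean of all probe sets for Scn2a (0.023) and Scn7a (−0.068), and with the most variable probe set for Cacna1e (0.030), Scn2a (0.11) and Scn7a (−0.26). They also turned with an array left out for Cacna1d (−0.094 to 0.045), Cacna1s (−0.18 to 0.22), Cacna2d3 (−0.27 to 0.064), Cacnb1 (−0.036 to 0.15), Cacnb2 (−0.016 to 0.11), Cacnb4 (−0.022 to 0.14), Hcn3 (−0.032 to 0.11), Scn2a (−0.089 to 0.063), Scn3a (−0.092 to 0.019), Scn7a (−0.11 to 0.21), Scn10a (−0.31 to 0.079), Scn11a (−0.23 to 0.25) and Scn4b (−0.54 to 0.10). The cause of these moves was not tested.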
